A study of Mus musculus with 6 samples.

Results

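Oxidative phosphorylation genes were followed in mouse muscle stem cells, in 6 RNA libraries. They encode the subunits of the respiratory chain and of ATP synthase, complexes I to V. Members were the protein-coding genes whose symbols match the Nduf, Sdh, Uqcr, Cox4 to Cox8 and Atp5 families of the nucleus, or the mt-Nd, mt-Co, mt-Atp and mt-Cytb genes of mitochondrial DNA. The rule found 86 of the 14515 genes listed, 78 nuclear and 8 mitochondrial (written mt-). Of the nuclear members, 35 belong to complex I, 4 to complex II, 8 to complex III, 14 to complex IV and 15 to complex V. The other 2, Atp5s and Atp5sl, carry the family name but are not subunits of ATP synthase.

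There were 2 libraries for each of 3 labelled groups. The mdx/Ripk3mKO group carries the mdx mutation of the dystrophin gene together with the change written Ripk3mKO, whose letters mKO the labels do not spell out. The mdx group, which models Duchenne muscular dystrophy, carries the mdx mutation alone, and the wt group is wild type. The sources used here do not give the promoter or Cre behind mKO, the age of the mice, or whether mice were pooled. Nor do they say that libraries of 1 group were separate mice or cultures, so what the spread behind the p-values measures is not known. It may be only technical within mdx and within wt, whereas the 2 mdx/Ripk3mKO libraries differ in sex-linked transcripts, as given below. The sources also describe the cells differently. The sample labels name quiescent satellite cells, resting muscle stem cells that were sorted, with 10000 to 20000 cells per library. The series text instead describes activated wild-type cells, taken after 72 hours below transwells with cells of the 3 genotypes. There the sequenced cells would be wild type throughout, so groups are called by their labels only.

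Mitochondria make most of the ATP of a resting muscle fibre. Complex I (NADH dehydrogenase) and complex II (succinate dehydrogenase) pass electrons to ubiquinone, complex III passes them to cytochrome c, and complex IV (cytochrome c oxidase) passes them to oxygen. Complexes I, III and IV pump protons, and complex V (ATP synthase) uses the gradient to make ATP. Mitochondrial DNA encodes core subunits of complexes I, III, IV and V, transcribed inside the organelle, whereas all other subunits are transcribed in the nucleus. Complex IV also has subunits with a separate isoform for heart and skeletal muscle, which come on as muscle cells mature.

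Scaled counts summed to between 20611974 and 21037153 per library, and the mdx/Ripk3mKO libraries were the most deeply sequenced, with estimated scaling divisors of 1.204 and 1.205 against 0.870 to 0.954 in the mdx and wt libraries. Depth and group therefore cannot be told apart for mdx/Ripk3mKO. Against the labelled resting state, the differentiation factor Myog lay between 1300 and 1698 CPM (scaled count relative to the library total) and the proliferation marker Mki67 between 660 and 820 CPM, whereas Pax7, which defines satellite cells, lay between 84.6 and 103 CPM. Library 1 of mdx/Ripk3mKO stood apart in sex-linked transcripts, with 6918 scaled counts of Xist and 373 of Ddx3y, against 164 to 666 and 1543 to 1785 in the other 5 libraries. Ripk3 itself had scaled counts of 17 and 33 in mdx/Ripk3mKO, 23 and 36 in mdx, and 45 and 32 in wt, so the groups overlapped. Of the markers of other cells, 2 of 6 macrophage genes were listed (summed scaled counts of 23 to 47), 4 of 5 endothelial genes (32 to 49), 2 of 4 genes of fibro-adipogenic progenitors (51 to 70), 1 of 4 brown adipocyte genes (15 to 24) and 0 of 6 erythroid genes. The pericyte and smooth muscle list summed to 37630 to 53745, nearly all of it Acta2, which differentiating muscle cells also make. In the same list Cspg4 lay at 1185 to 1773 scaled counts, Pdgfrb at 248 to 444 and Rgs5 at 11 to 27, and Myh11 was not listed. The part of such cells in the libraries was not tested.

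Transcripts of mitochondrial DNA were far more abundant than the nuclear members. Over the 6 libraries the 8 mt- members took 4.48% to 5.07% of all scaled counts, and the 78 nuclear members together took 1.19% to 1.26%. Levels of different genes were compared as scaled count per kilobase of exon, averaged over the 6 libraries. The length was that of all annotated exons of a gene joined, so a gene with long, rarely used exons comes out low. On this scale mt-Nd1, a core subunit of complex I, came first with 220568, followed by mt-Cytb, the cytochrome b of complex III, with 181469 and mt-Co1, a catalytic subunit of complex IV, with 164448. The complex I genes mt-Nd2, mt-Nd5, mt-Nd6 and mt-Nd4 lay at 100145, 66482, 65177 and 47596 per kilobase. The highest nuclear member, Atp5b, reached 11331, so each of these 7 mt- genes lay above every nuclear member on this scale.

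The eighth mt- member, mt-Nd3, was the exception, with scaled counts of 7 and 4 in mdx/Ripk3mKO, 4 and 7 in mdx, and 11 and 8 in wt, or 19.6 per kilobase on average. Its whole coding sequence of 345 bases has a copy with 99.7% identity on chromosome 1, the unprocessed pseudogene Gm28438. Of the 13 protein-coding mitochondrial genes, mt-Co2, mt-Co3, mt-Atp6 and mt-Nd4l also have copies on chromosome 1, which cover 99.9% to 100% of their coding sequence at 100% identity. These 4 genes and mt-Atp8, for which the copy covers 19.9%, have no row in the table and were not analysed here. Among annotated transcripts, the only ones searched, no copy on chromosome 1 was found for mt-Nd1, mt-Nd2, mt-Nd5, mt-Nd6 and mt-Cytb. On that chromosome a copy covers 63.6% of mt-Nd4 and 31.1% of mt-Co1. The gene mt-Co1 also has a copy over its whole coding sequence on chromosome 2 at 97.6% identity, Gm13340, listed at scaled counts of 37 to 45. The sources used here do not say how reads with several matches were counted, and the part of the copies in these levels was not tested. They give no strand setting either, which bears on mt-Nd6, encoded on the strand opposite to the other mt- members.

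Among nuclear members the ATP synthase genes were the highest. Atp5b and Atp5a1 encode the beta and alpha subunits of its catalytic head, and lay at 11331 and 10369 per kilobase. These 2 genes together made up 31.4% to 31.9% of the summed scaled counts of all nuclear members in every library. Cox6b1 of complex IV, a subunit facing the intermembrane space, followed with 7264, and then Cox8a with 5985 and Cox6a1 with 4720. In complex II the membrane anchor Sdhd was highest, at 4411, and the other anchor Sdhc lowest, at 813. Complex III ran from the hinge protein Uqcrh at 3217 to Uqcrq at 1237. The order depends on exon length. Uqcrq, with 1831 bases of exon, had a mean scaled count of 2266, above Uqcrb (1667), Uqcr10 (1514) and Uqcr11 (1252). Complex I had the lowest median, 734 per kilobase over 35 genes, against 1698 to 1970 in the other 4 complexes. Its lowest member was the accessory subunit Ndufb4 at 46.3. The whole coding sequence of Ndufb4 has a copy at 100% identity, the processed pseudogene Ndufb4c on chromosome 15, so this level is uncertain. The 7 nuclear core subunits and the 28 nuclear accessory subunits of complex I had medians of 814 and 714.

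At the bottom lay Atp5l, subunit g of ATP synthase, at 1.01 per kilobase, with scaled counts of 7 and 3 in mdx/Ripk3mKO, 9 and 6 in mdx, and 3 and 11 in wt. Atp5l had 8 near copies among annotated transcripts of other genes, the most of any member. A near copy matches at least 80% of the coding length at 95% identity or more. Copies without an annotated transcript were not searched for. In all, 20 of the 78 nuclear members had at least 1 near copy, so their levels are uncertain where reads could be split. Exons of 25 nuclear members overlap exons of a gene on the opposite strand, and reads of such pairs cannot be told apart unless strand was used.

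**Figure D1:**
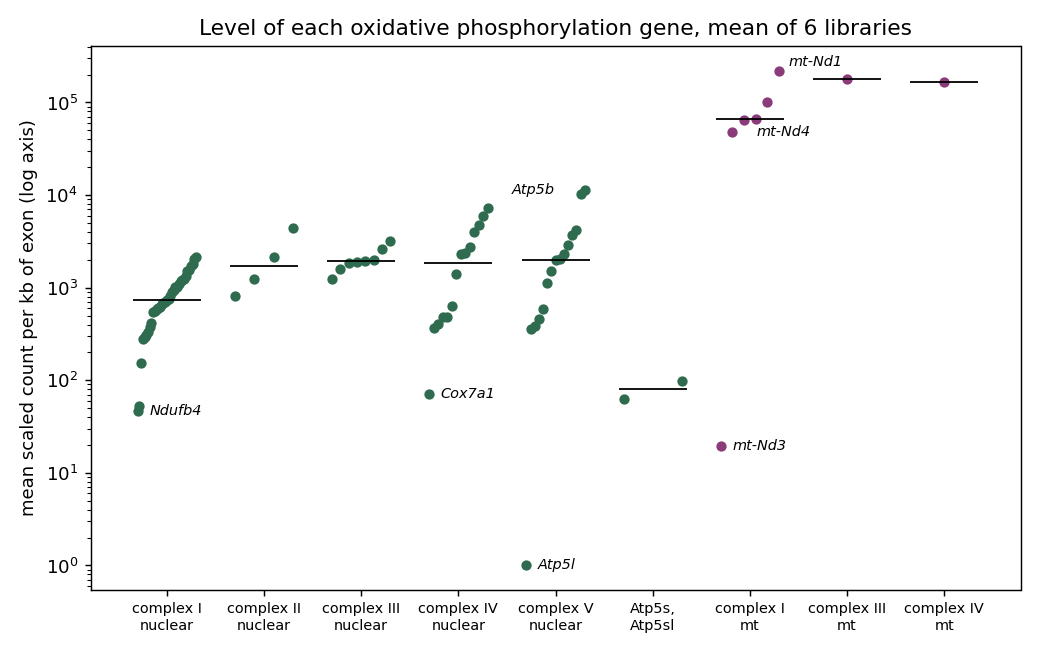
Mean scaled count per kilobase of exon over the 6 libraries (y axis, log scale) for each of the 86 members, in columns by complex and genome, with points in each column sorted by level and a bar at the column's median. The mt- members lie at 47596 per kilobase or higher except mt-Nd3 at 19.6, and the nuclear members reach from Atp5l at 1.01 to Atp5b at 11331.

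Members were tested if they reached 10 scaled counts in 2 or more libraries, which held for 77 of 78 nuclear and 7 of 8 mt- members, all but Atp5l and mt-Nd3. The test was limma on log2(scaled count + 1) over all 6 libraries, with Benjamini-Hochberg adjustment over all 14077 genes tested, and errors after ± are its standard errors. No member passed an adjusted p of 0.05 in any of the 3 comparisons. In the same comparisons 0.0071% of all genes were called in mdx against wt (1 gene), 0.206% in mdx/Ripk3mKO against mdx (29 genes) and 0% in mdx/Ripk3mKO against wt (0 genes). The members' count of 0 is near that background and is not a result about them. At an unadjusted p under 0.05 in the same fit, 5 of 84 members were higher and 0 lower in mdx against wt, where 3.44% of all genes were higher and 3.02% lower. For mdx/Ripk3mKO against mdx, 2 members were higher and 2 lower, where 5.77% and 5.87% of all genes were. For mdx/Ripk3mKO against wt, 2 were higher and 0 lower, where 1.24% (174 genes) and 2.09% (294 genes) were.

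The intervals bound the size of the differences, given the spread between these libraries. The same share was not counted over all genes, so the counts below describe the members without a background. For mdx against wt, the 95% confidence interval of the difference stayed within 1.5-fold in either direction for 75 of 77 nuclear members, all but Cox6a2 and Cox8b. The same held for 73 of 77 in mdx/Ripk3mKO against mdx, where Cox7a1 and Ndufb4 also went beyond it, and for 74 of 77 in mdx/Ripk3mKO against wt, where Cox7a1 did. All 7 tested mt- members stayed within 1.5-fold in all 3 comparisons. The median standard error of a log2 fold change was 0.062 for nuclear and 0.063 for mt- members.

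The mt- members moved together from library to library, and the 2 libraries of a group could differ as much as groups did. The highest, mt-Co1, had scaled counts of 266848 and 232975 in mdx/Ripk3mKO, 257238 and 259069 in mdx, and 242938 and 265365 in wt. For mt-Nd1 they were 225762 and 201408 in mdx/Ripk3mKO, 219851 and 214612 in mdx, and 195886 and 208982 in wt. For mt-Cytb they were 220779 and 196452 in mdx/Ripk3mKO, 213881 and 212874 in mdx, and 195128 and 206487 in wt. In all 7 tested mt- members, library 1 of mdx/Ripk3mKO lay above library 2, by a median of 0.20 on the log2 scale, and library 1 of wt lay below library 2, by a median of 0.095. The mdx libraries differed by a median of 0.008 in either direction. As a share of the sum of the mt- members, mt-Co1 made up 25% and 25.1% in mdx/Ripk3mKO and 24.9% and 25.3% in mdx, against 26.1% and 26.6% in wt, and mt-Nd1 made up 20.9% to 21.7% over the 6 libraries.

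Both mdx libraries lay above both wt libraries for 6 of the 7 tested mt- members, against 17.6% of all genes. The exception was mt-Co1. The median log2 fold change of the 7 was 0.10 in mdx against wt, with all 7 above 0, but 0.038 with 6 of 7 above 0 once GC content and exon length were corrected for. Over all genes the median was -0.002. The smallest p was that of mt-Nd2, with scaled counts of 110772 and 110196 in mdx, against 94970 and 102339 in wt. Its log2 fold change was 0.16 ± 0.06 (adjusted p = 0.668 by limma).

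The mdx/Ripk3mKO libraries overlapped with both other groups in all tested mt- members but 1. The median log2 fold change of the 7 was -0.036 against mdx, with 0 of 7 above 0, but 0.065 with 7 of 7 above 0 after the same correction. Against wt it was 0.074 with 6 of 7 above 0, and 0.125 with 7 of 7 above 0 after the correction. Quantile normalization gives no answer for these genes, since 4 of the 7 hold the same rank in every library and are set to equal values by it. The exception was mt-Nd2, with both mdx/Ripk3mKO libraries below both mdx libraries, as in 20.3% of all genes. Without library 1 of mdx/Ripk3mKO the medians were -0.148 against mdx and -0.031 against wt, and without library 2 they were 0.052 and 0.158. The mt- members are poor in G and C, with a median GC content of 37.1% against 49.5% over all genes, and fold changes of all genes went with GC content (Spearman rho of 0.30 in mdx/Ripk3mKO against mdx, -0.17 in mdx against wt and 0.21 in mdx/Ripk3mKO against wt, across 14066 genes). In bulk RNA such as this, fewer cells of a type and less RNA per cell cannot be told apart.

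**Figure D2:**
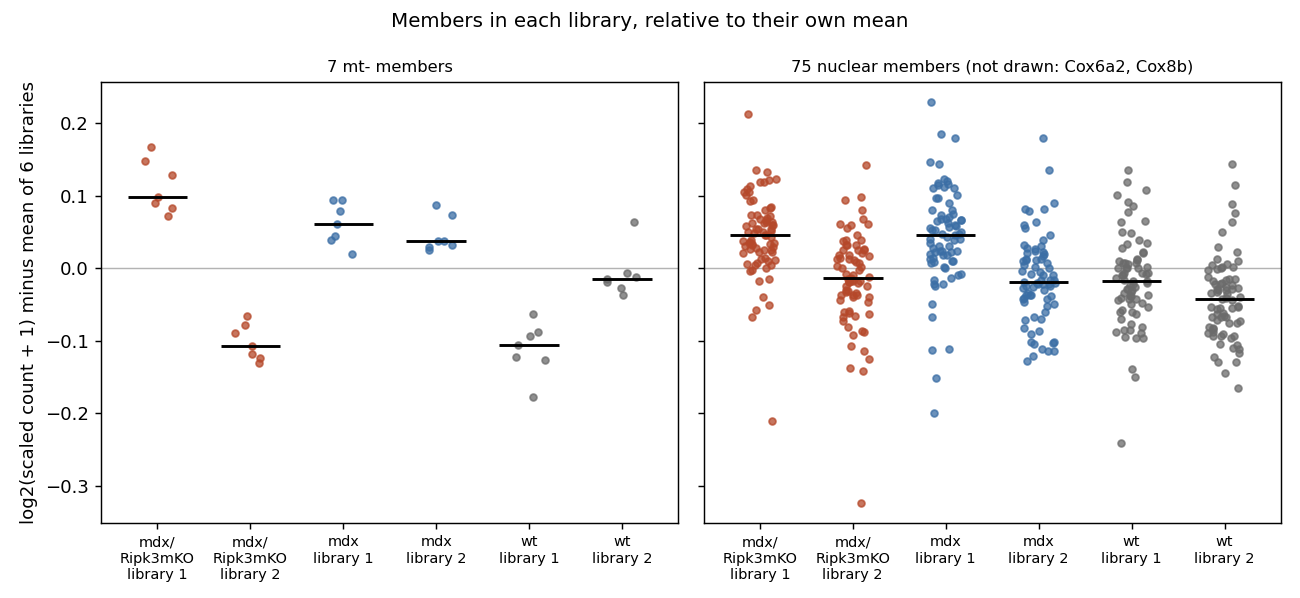
Difference of each tested member's log2(scaled count + 1) from its own mean over the 6 libraries (y axis), by library (x axis), for the 7 mt- members on the left and 75 nuclear members on the right. Bars are medians. The mt- medians are 0.099 and -0.107 in mdx/Ripk3mKO, 0.060 and 0.038 in mdx, and -0.106 and -0.015 in wt. Cox6a2 and Cox8b are beyond the axis and are not drawn.

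The SD of the per-library median within groups, pooled over the 3 groups, was 0.039 on the log2 scale for nuclear members and 0.092 for mt- members. The mt- value rested mostly on mdx/Ripk3mKO, with medians of 0.099 and -0.107. In mdx the nuclear medians were farther apart, at 0.047 and -0.017, than the mt- medians, at 0.060 and 0.038. The summed share of the nuclear members in all scaled counts was 1.26% and 1.22% in mdx/Ripk3mKO, 1.24% and 1.21% in mdx, and 1.21% and 1.19% in wt. Library 1 lay above library 2 for 65 of 77 tested members in mdx/Ripk3mKO, 68 of 77 in mdx and 45 of 77 in wt, where 47.9%, 49.2% and 49% of all genes did. The median difference between the 2 libraries of a group was 0.061, 0.055 and 0.034, in that order, on the log2 scale. Between groups the median log2 fold change of nuclear members was 0.050 in mdx against wt and 0.000 in mdx/Ripk3mKO against mdx. In mdx/Ripk3mKO against wt it was 0.046. Fold changes compare means of 2 libraries, which spread less than single libraries, so the 2 kinds of difference are not like for like.

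Signs leaned upward against wt. In mdx against wt, 54 of 77 nuclear members had a fold change above 0, where 49% of all genes did, and for 34 both mdx libraries lay above both wt libraries, against 4 below. Of mdx/Ripk3mKO against wt, 61 of 77 lay above 0 (50.5% of all genes), and 28 lay above wt in both libraries, against 1 below. In all genes the shares were 17.6% above and 18.3% below for the first comparison and 14.4% and 15.1% for the second. Between mdx/Ripk3mKO and mdx the members were split, 39 above 0 and 38 below, with 16 fully above and 14 fully below, where 21% and 20.3% of all genes were. The comparisons share libraries, and without wt library 1 or 2 the mdx count was 60 or 52 of 77 above 0. Without library 1 of mdx/Ripk3mKO, 46 of 77 lay above 0 against wt, and without library 2, 68 did.

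**Figure D3:**
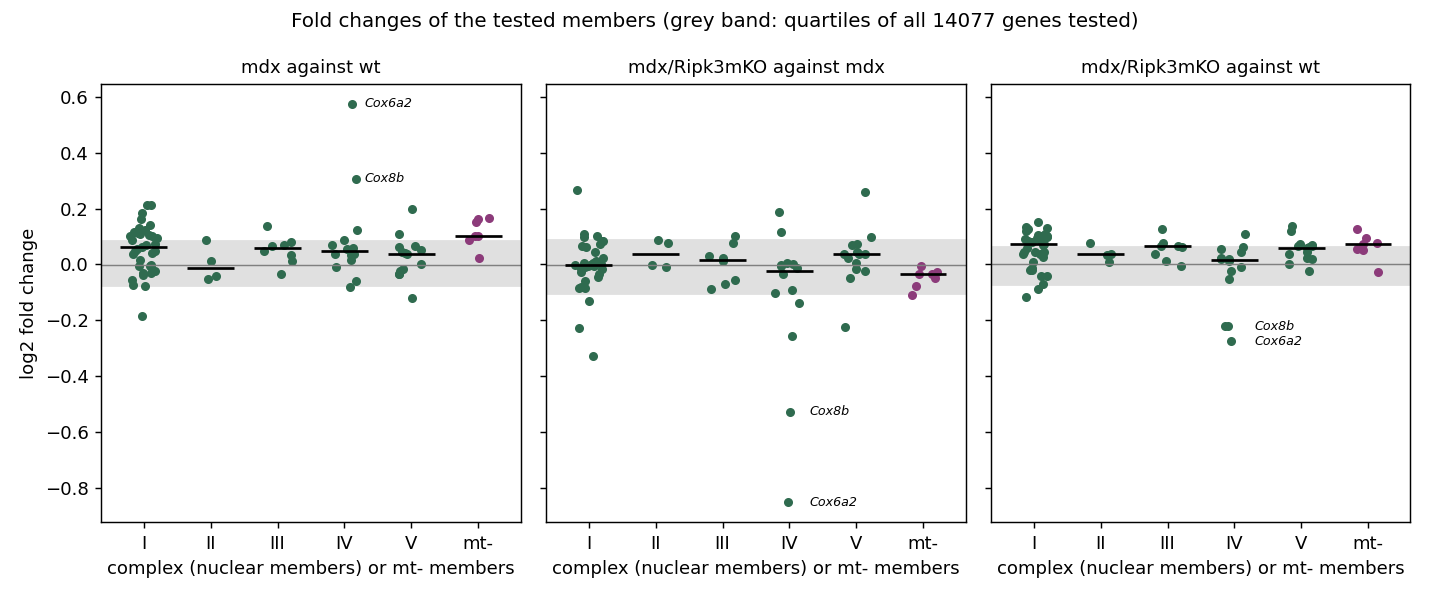
Log2 fold change (y axis) of every tested member of complexes I to V, by complex for nuclear members and in 1 column for mt- members, in each of the 3 comparisons. Bars are medians, and the grey band runs between the quartiles of all 14077 genes. In mdx against wt and in mdx/Ripk3mKO against mdx, Cox6a2 and Cox8b lie farthest from it.

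Complex I, the largest complex, leaned upward against wt as the whole set did. In mdx against wt its 35 nuclear members had a median log2 fold change of 0.064, 16 with both mdx libraries above wt and 1 below (17.6% and 18.3% of all genes). Against wt, mdx/Ripk3mKO had a median of 0.073, with 16 above and 0 below (14.4% and 15.1% of all genes). Ndufa6, an accessory subunit of the matrix arm, had scaled counts of 781 and 731 in mdx/Ripk3mKO and 810 and 791 in mdx, against 704 and 676 in wt. The 3 groups did not overlap for this gene, and the log2 fold change of 0.21 ± 0.07 in mdx against wt had an adjusted p of 0.586 by limma. Ndufb10, an accessory subunit of the membrane arm, had 2343 and 2250 in mdx/Ripk3mKO and 2151 and 2129 in mdx, against 2106 and 2030 in wt. Its log2 fold change in mdx/Ripk3mKO against wt was 0.15 ± 0.06 (adjusted p = 1 by limma), the smallest unadjusted p of a member in that comparison, 0.0166.

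Ndufs8, an iron-sulphur core subunit, had scaled counts of 1639 and 1571 in mdx/Ripk3mKO and 1634 and 1563 in mdx, against 1528 and 1424 in wt, with both other groups above wt. Ndufb3, Ndufs4 and Ndufa12 in mdx against wt, and Ndufb11 and Ndufa9 in mdx/Ripk3mKO against wt, were of the same size, with log2 fold changes of 0.10 to 0.16. Against mdx, the 3 complex I members among the 10 smallest p in mdx/Ripk3mKO all had negative fold changes: Ndufb4 at -0.33 ± 0.17, Ndufa5 at -0.13 ± 0.07 and Ndufa1 at -0.23 ± 0.12. Their adjusted p lay between 0.479 and 0.496 by limma. The shared sign did not hold for the complex: of its 35 nuclear members, 17 lay above 0 and 18 below in this comparison. Of these, 6 lay fully above mdx and 5 fully below, where 21% and 20.3% of all genes did. Ndufb4 had scaled counts of 76 and 83 in mdx/Ripk3mKO, 100 and 100 in mdx, and 80 and 93 in wt. Its reads could be split with the copy Ndufb4c, which is not listed. Ndufa1 is 1 of 3 members on the X chromosome, with 307 and 287 in mdx/Ripk3mKO, 359 and 336 in mdx, and 267 and 349 in wt.

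The 4 genes of complex II, all nuclear, were among those with intervals within 1.5-fold in all comparisons. Sdha, the flavoprotein that binds succinate, had scaled counts of 9048 and 8650 in mdx/Ripk3mKO, 9002 and 8734 in mdx, and 8845 and 8726 in wt. Sdhd had 5738 and 5434 in mdx/Ripk3mKO, 5337 and 5168 in mdx, and 5557 and 5346 in wt. Median log2 fold changes of the complex were -0.014, 0.038 and 0.036 in mdx against wt, mdx/Ripk3mKO against mdx and mdx/Ripk3mKO against wt. In complex III 7 of 8 members lay above 0 in mdx against wt, with a median of 0.058. Its lowest p was that of Uqcrh, with 4261 and 4083 in mdx, against 3580 and 4010 in wt (0.14 ± 0.06, adjusted p = 0.750 by limma, and 0.057 or 0.22 without wt library 1 or 2). Uqcr11, a small subunit, had 1361 and 1261 in mdx/Ripk3mKO, against 1245 and 1157 in wt. Among electron carriers and related genes outside the symbol rule, the cytochrome c1 gene Cyc1 had 5534 and 5499 in mdx/Ripk3mKO, against 4939 and 4874 in mdx, and 5367 and 5040 in wt. That difference from mdx was 0.17 ± 0.05 on the log2 scale (adjusted p = 0.222 by limma).

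The smallest p in mdx/Ripk3mKO against mdx were those of Atp5k, Atp5g2 and Cox6a1, of ATP synthase and complex IV. Atp5k encodes subunit e, which helps hold ATP synthase dimers together in the inner membrane. It had scaled counts of 1198 and 1146 in mdx/Ripk3mKO, 1374 and 1364 in mdx, and 1168 and 1216 in wt. Both mdx libraries lay above the other 4. The log2 fold change was -0.22 ± 0.06 in mdx/Ripk3mKO against mdx (adjusted p = 0.170 by limma) and 0.20 ± 0.06 in mdx against wt (adjusted p = 0.566), and these 2 comparisons share the mdx libraries.

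Atp5g2 encodes subunit c of the membrane rotor, as do Atp5g1 and Atp5g3. Its scaled counts were 651 and 660 in mdx/Ripk3mKO, 538 and 557 in mdx, and 631 and 562 in wt. Both mdx libraries were the lowest of the 6, with a log2 fold change of 0.26 ± 0.08 in mdx/Ripk3mKO against mdx (adjusted p = 0.231 by limma). The more abundant Atp5g3, which makes the same mature protein, had 6628 and 6353 in mdx/Ripk3mKO, 6202 and 6137 in mdx, and 6296 and 6175 in wt. Atp5g1 had 2422 and 2168 in mdx/Ripk3mKO, 2195 and 2272 in mdx, and 2410 and 2173 in wt, with overlapping groups. Atp5d, the delta subunit of the central stalk, had a log2 fold change of 0.10 ± 0.05 in mdx/Ripk3mKO against mdx. Atp5j2, subunit f, had 0.12 ± 0.06 in mdx/Ripk3mKO against wt. Atp5k had 1 near copy and Atp5g2 had 2, of which Gm10175 is listed at scaled counts of 5 to 14.

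Cox6a1, the isoform of subunit 6a found in most tissues, had scaled counts of 3631 and 3450 in mdx/Ripk3mKO, 3154 and 3061 in mdx, and 3523 and 3063 in wt. Its log2 fold change in mdx/Ripk3mKO against mdx was 0.19 ± 0.07 (adjusted p = 0.289 by limma). In that comparison 4 of the 14 complex IV members lay above 0 and 10 below, and Cox8a was at 0.12 ± 0.06. Among those below, Cox6c, with 1439 and 1321 in mdx/Ripk3mKO, against 1564 and 1473 in mdx, had -0.14 ± 0.06, and Cox6b1, with 5214 and 4884 in mdx/Ripk3mKO, against 5469 and 5358 in mdx, had -0.10 ± 0.05. Cox6b1 was also at 0.12 ± 0.05 in mdx against wt, where it had 4951 and 4983 in wt. Cox4i1, the common isoform of subunit 4, was even, with 6329 and 6044 in mdx/Ripk3mKO, 6203 and 6126 in mdx, and 6119 and 5885 in wt.

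The windows just upstream of these 3 start sites, those of the smallest p in mdx/Ripk3mKO against mdx, are shown 5′ to 3′ as the 150 bases before the RefSeq start of each gene, on build GRCm38.p6. Atp5k lies at chr5:108434400-108434549, Atp5g2 at chr15:102671048-102671197 and Cox6a1 at chr5:115348959-115349108, all on the minus strand. Capitals mark matches, on either strand, to the letters searched for NRF1 (GCGCANGCG) or for ETS factors (CCGGAAG). NRF1 and the ETS factor GABP are known regulators of respiratory genes.
Atp5k: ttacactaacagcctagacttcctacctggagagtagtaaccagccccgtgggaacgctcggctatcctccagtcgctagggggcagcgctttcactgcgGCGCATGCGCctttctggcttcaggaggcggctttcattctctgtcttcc
Atp5g2: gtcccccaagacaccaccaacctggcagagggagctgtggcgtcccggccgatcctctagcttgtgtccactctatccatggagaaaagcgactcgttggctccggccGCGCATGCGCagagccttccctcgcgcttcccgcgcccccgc
Cox6a1: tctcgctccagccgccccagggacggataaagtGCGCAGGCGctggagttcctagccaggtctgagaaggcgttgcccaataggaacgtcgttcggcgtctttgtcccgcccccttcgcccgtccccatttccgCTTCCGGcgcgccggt

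Atp5k and Atp5g2, whose values differ from mdx in opposite directions, hold the NRF1 letters on both strands at 1 place. RefSeq windows were at hand for 66 of the 78 nuclear members, each from 250 bases before to 50 after the start. Some members have more than 1 window, 72 in all, and a gene was counted once if any of its windows held the letters. The NRF1 letters occurred in 30.3% of the 66 members (20 genes), against 15.4% of 9818 coding genes in the table and 7.03% of all 27025 genes with a window. The YY1 letters (GCCATNTT) occurred in 27.3% of the members, 9.92% of listed coding genes and 6.96% of all, and the ETS letters in 24.2%, 19.8% and 9.93%. The SP1 letters (GGGCGG) ran the other way, in 37.9% of the members, 69.7% of listed coding genes and 38.2% of all. The CRE letters (TGACGTCA) were in 6.06%, 3.63% and 2.03%, and 11 of the 66 members had none of these 5 motifs. Both strands were searched and matches could overlap, and a match is a string of letters, not a bound site.

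The muscle isoforms of complex IV had the largest standard errors of the tested members, at 0.40 for Cox6a2, 0.34 for Cox8b and 0.24 for Cox7a1 in each comparison. Cox6a2 is the heart and skeletal muscle isoform of subunit 6a, made late in muscle differentiation. It had scaled counts of 339 and 169 in mdx/Ripk3mKO, 490 and 382 in mdx, and 287 and 293 in wt. Both mdx libraries lay above the other 4, and the 2 mdx/Ripk3mKO libraries lay on either side of wt. Per kilobase Cox6a2 came to 9.64% and 5.06% of Cox6a1 in mdx/Ripk3mKO, 16% and 12.9% in mdx, and 8.41% and 9.88% in wt.

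Cox6a2 had a log2 fold change of 0.58 ± 0.40 in mdx against wt (adjusted p = 0.867 by limma) and -0.85 ± 0.40 in mdx/Ripk3mKO against mdx (adjusted p = 0.537). The call depends on the mdx/Ripk3mKO libraries. With the mdx and wt libraries alone, which share the spread of these 4 libraries only, the same 0.58 had an error of 0.12 and passed (adjusted p = 0.0377 by limma). With all but library 2 of mdx/Ripk3mKO it also passed (adjusted p = 0.0387), and with all but library 1 it did not (0.0508). Against mdx, the value in mdx/Ripk3mKO was -1.35 without library 1 of mdx/Ripk3mKO (adjusted p = 0.000309 by limma, with the lone library assumed to vary like the other groups) and -0.35 without library 2 (adjusted p = 0.477).

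Cox8b, the muscle isoform of subunit 8, had scaled counts of 154 and 74 in mdx/Ripk3mKO, 161 and 148 in mdx, and 111 and 140 in wt. Library 2 of mdx/Ripk3mKO was again the lowest, and the log2 fold change against mdx was -0.53 ± 0.34 (adjusted p = 0.631 by limma), or -1.05 without library 1 of mdx/Ripk3mKO (adjusted p = 0.0133) and -0.003 without library 2 (adjusted p = 0.999). Cox7a1, the muscle isoform of subunit 7a, had 38 and 30 in mdx/Ripk3mKO, 41 and 40 in mdx, and 38 and 41 in wt. Per kilobase it came to 2.39% to 3.24% of Cox7a2, and Cox8b to 3.49% to 7.55% of Cox8a, so the common isoforms prevailed in every library. Cox8a had 4057 and 3651 in mdx/Ripk3mKO, 3667 and 3442 in mdx, and 3684 and 3726 in wt. Cox7a2 had 2245 and 2212 in mdx/Ripk3mKO, 2284 and 2279 in mdx, and 2162 and 2234 in wt.

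The sum of markers of mature muscle fibres moved with Cox6a2. The 4 listed of 5 (Myh1, Myh2, Myh4 and Mylpf) summed to scaled counts of 52536 and 35248 in mdx/Ripk3mKO, 59060 and 58365 in mdx, and 42254 and 43676 in wt. This sum was highest in library 1 of mdx and lowest in library 2 of mdx/Ripk3mKO, as for Cox6a2. Taken singly, all 4 were lowest in library 2 of mdx/Ripk3mKO, but only Mylpf was highest in library 1 of mdx. Myh1 and Myh4 were highest in library 2 of mdx, at 27921 and 597, and Myh2 in library 1 of mdx/Ripk3mKO, at 82. The 7 markers of differentiating muscle summed to 301541 and 232109 in mdx/Ripk3mKO, 320871 and 278926 in mdx, and 266646 and 255657 in wt. The part of more or fewer mature cells in the values of Cox6a2 and Cox8b was not tested.

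**Figure D4:**
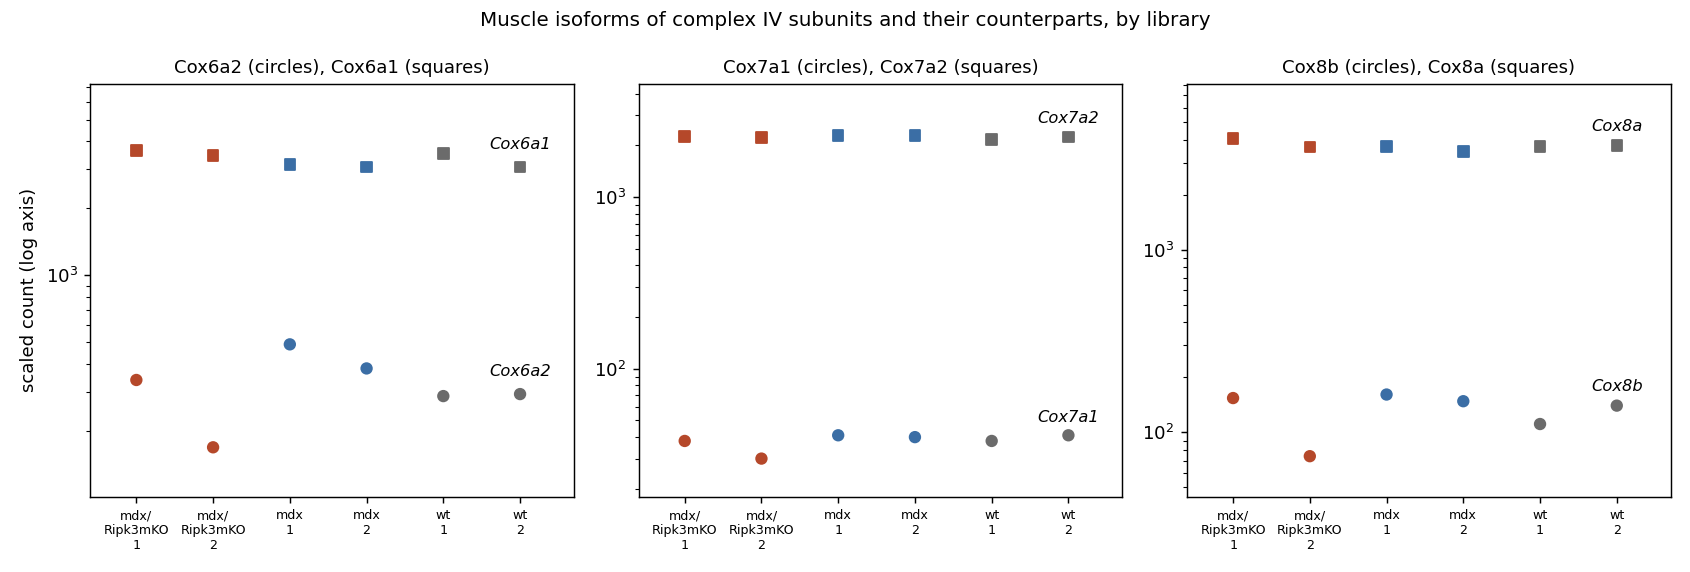
Scaled counts (y axis, log scale) in each of the 6 libraries of the muscle isoforms Cox6a2, Cox7a1 and Cox8b (circles) and of Cox6a1, Cox7a2 and Cox8a, the isoforms of most tissues (squares). Each muscle isoform lies far below its counterpart, and library 2 of mdx/Ripk3mKO is the lowest for Cox6a2 at 169, Cox8b at 74 and Cox7a1 at 30.

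The 150 bases upstream of 2 muscle isoforms and of their common counterparts are given from the same source, to set the isoforms side by side: Cox8b at chr7:140900447-140900596 (minus strand), Cox8a at chr19:7217617-7217766 (minus), Cox7a1 at chr7:30184021-30184170 (plus) and Cox7a2 at chr9:79759854-79760003 (minus). Capitals mark CAGCTG, a form of the E-box, which myogenic factors such as MyoD bind. These letters were added to the search after the sequences had been seen.
Cox8b: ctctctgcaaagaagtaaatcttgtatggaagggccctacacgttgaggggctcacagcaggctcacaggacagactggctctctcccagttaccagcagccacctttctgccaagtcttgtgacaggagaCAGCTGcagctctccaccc
Cox8a: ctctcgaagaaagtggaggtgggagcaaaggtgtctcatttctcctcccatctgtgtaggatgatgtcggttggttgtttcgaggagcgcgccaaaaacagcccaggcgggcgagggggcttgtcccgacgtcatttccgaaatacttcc
Cox7a1: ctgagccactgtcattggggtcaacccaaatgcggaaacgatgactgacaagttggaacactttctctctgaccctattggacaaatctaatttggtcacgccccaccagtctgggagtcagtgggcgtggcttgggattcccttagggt
Cox7a2: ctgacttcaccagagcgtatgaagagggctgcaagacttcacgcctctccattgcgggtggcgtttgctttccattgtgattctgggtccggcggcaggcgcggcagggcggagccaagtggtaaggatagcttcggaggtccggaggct

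Of these 4 stretches only that of Cox8b holds CAGCTG. The other stretches hold other forms of the E-box, which were not counted. Of the 66 members 9.09% held CAGCTG in a window, against 18.4% of listed coding genes and 18.3% of all.

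Genes around the respiratory chain, from lists fixed by name or by symbol pattern, also had 0 called members in all 3 comparisons. Over all genes 0.0071% were called in mdx against wt, 0.206% in mdx/Ripk3mKO against mdx and 0% in mdx/Ripk3mKO against wt. The count of 0 is near that background and is not a result about these lists. The 77 mitochondrial ribosomal proteins, which translate the mt- mRNAs, had a median log2 fold change of 0.050 in mdx/Ripk3mKO against mdx, with 56 of 77 above 0 and 32 fully above mdx, where 21% of all genes were. In mdx against wt they were even, with a median of 0.001 and 39 of 77 above 0. Mrpl14 had scaled counts of 300 and 311 in mdx/Ripk3mKO, against 242 and 261 in mdx (0.28 ± 0.10, adjusted p = 0.305 by limma). The 44 assembly factors had medians of 0.006 in mdx against wt and 0.009 in mdx/Ripk3mKO against mdx, and the 23 genes of mitochondrial DNA transcription, replication and RNA processing had 0.030 and -0.022.

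Among 19 regulators of mitochondrial gene expression, Ppargc1a, a coactivator that drives mitochondrial biogenesis, had scaled counts of 387 and 258 in mdx/Ripk3mKO, 439 and 495 in mdx, and 312 and 381 in wt. The mdx libraries were the highest, with -0.56 ± 0.20 in mdx/Ripk3mKO against mdx (adjusted p = 0.385 by limma). Gabpa, which encodes the DNA-binding part of GABP, had 3465 and 3451 in mdx/Ripk3mKO, 3788 and 3734 in mdx, and 3438 and 3635 in wt. Sirt3, which had the smallest p of this list, went the other way. It had 110 and 111 in mdx/Ripk3mKO, 85 and 117 in mdx, and 137 and 134 in wt. Its log2 fold change in mdx against wt was -0.44 ± 0.17 (adjusted p = 0.668 by limma). In that comparison 9 of the 19 regulators lay above 0 and 10 below, with a median of -0.014. Of 25 genes of the tricarboxylic acid cycle and pyruvate entry, Pdp1, a phosphatase that activates pyruvate dehydrogenase, had the smallest p. It had 516 and 431 in mdx/Ripk3mKO, 636 and 599 in mdx, and 433 and 464 in wt. Its log2 fold changes were 0.46 ± 0.10 in mdx against wt (adjusted p = 0.261 by limma) and -0.39 ± 0.10 in mdx/Ripk3mKO against mdx (adjusted p = 0.121). The mitochondrial 16S rRNA mt-Rnr2 had 18655 and 18678 in mdx/Ripk3mKO, 20209 and 20610 in mdx, and 16843 and 19246 in wt, so both mdx libraries lay above the other 4, and its log2 fold change in mdx against wt was 0.18 ± 0.06 (adjusted p = 0.586 by limma). The other mitochondrial rRNA, mt-Rnr1, did not share this. It had 8664 and 8613 in mdx/Ripk3mKO, 8372 and 8428 in mdx, and 7483 and 8965 in wt (0.04 ± 0.07 in mdx against wt, adjusted p = 0.964 by limma).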

How the data were processed

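The 6 RNA libraries were labelled, 2 each, mdx/Ripk3mKO, mdx and wt, and were made with a Takara SMARTer stranded total RNA kit, per the labels' protocols. The deposited values are the authors' read counts after scaling and rounding, and are a score rather than raw counts: median-of-ratios size factors from the table lay between 1.0019 and 1.0023, and whole numbers were skipped or doubled at regular steps, from which the divisors were estimated. Tools named, without their roles, in the submitters' processing notes are DESeq2 1.18.1, featureCounts 1.6.3, STAR 2.6.1d and Trimmomatic 0.36, with build mm10. Strand setting and the handling of reads with several matches are not given in the sources used here. Each of the 14515 genes listed reached 10 in some library. A count of 0 allows 3 counts, or 2.49 to 3.45 scaled counts. Both mdx columns carry the same header, so their library numbers are only names.

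Fold changes and tests came from limma 3.58.1 (R 4.3.3, statmod 1.5.0) on log2(scaled count + 1), a pseudocount of 1, with 1 fit over the 6 libraries, genotype only, a mean-variance trend and robust moderation. Errors are moderated standard errors. Tested were 14077 genes that reached 10 in 2 or more libraries. Fold changes on this scale understate those of low genes. The fit was tested on simulated data. Exon lengths and GC content came from GENCODE M21, near copies from a BLAST search of coding sequences against its transcripts, and promoters from RefSeq, build GRCm38.p6. Named are the 10 members of smallest p in each comparison, all mt- members, isoform pairs, the highest and lowest per kilobase in each complex, members that failed the filter, and up to 3 genes of smallest p in each other list. Some selected genes are not described. Members and lists were chosen with earlier results of these data known, so no p-value was adjusted over a list and no list was tested.

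Alternatives were another pseudocount, other filters, 3 other scalings, a plain moderation, a correction for GC content and exon length, each comparison's 2 groups alone, leaving out each library, and a replicate block.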

Additional observations from a re-analysis of the deposited data

How the results depend on the processing

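Members called stayed at 0 in all 3 comparisons under every alternative run, with these exceptions. In mdx against wt, 1 member (Cox6a2) was called with the 2 groups alone, and 0 to 1 when a library was left out. In mdx/Ripk3mKO against mdx, 0 to 2 members (Cox6a2 and Cox8b) were called when a library was left out. In mdx/Ripk3mKO against wt no alternative called a member.

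Genes called in mdx against wt numbered 1, and 103 with the 2 groups alone; leaving out a library gave 0 to 103 (103 without either mdx/Ripk3mKO library, 0 without any 1 of the other 4). For mdx/Ripk3mKO against mdx they numbered 29, and 18 for genes with a mean of at least 50, 1 without trend and robust moderation, 7 once corrected for GC content and exon length, 2 with the 2 groups alone, and 1 to 278 when a library was left out (278 without library 1 of mdx/Ripk3mKO, 13 and 1 without mdx library 1 and 2, and 2 without either wt library). In mdx/Ripk3mKO against wt they numbered 0, and 0 to 20 when a library was left out, by limma (20 without library 2 of mdx/Ripk3mKO). In each comparison the cause was not tested.

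Medians of nuclear members ranged, over the libraries left out, from 0.019 to 0.074 in mdx against wt, -0.032 to 0.035 in mdx/Ripk3mKO against mdx and 0.021 to 0.083 in mdx/Ripk3mKO against wt. For mt- members the ranges were 0.073 to 0.149 in mdx against wt, -0.148 to 0.052 in mdx/Ripk3mKO against mdx and -0.031 to 0.158 in mdx/Ripk3mKO against wt. Correction for GC content and exon length gave mt- medians of 0.038, 0.065 and 0.125 in these 3 comparisons, from 0.102, -0.036 and 0.074, and the cause was not tested. The mt- median of 0 after quantile normalization in mdx against wt is set by its construction, since 4 of the 7 mt- members hold the same rank in every library. Of 1908 values of 39 named members under the alternatives, 1818 kept their side of the threshold and their size, 86 moved without a call, 4 became calls (Cox6a2 at 0.576 in mdx against wt under 2 alternatives, and at -1.35, with Cox8b at -1.05, in mdx/Ripk3mKO against mdx) and 0 changed sign as a call.

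The columns of mdx/Ripk3mKO and wt carry replicate numbers. With these as a replicate block, 0 genes were called in mdx/Ripk3mKO against wt, as without it, and the nuclear and mt- medians were 0.046 and 0.074. Deviations of same-numbered libraries had a correlation of -0.011 across 14077 genes, so they did not go together over all genes. This correlation cannot show whether the libraries were prepared in pairs, because pairing could affect only some genes. No paired analysis was possible because the mdx columns carry no number, in the 2 comparisons with mdx. With 2 libraries a group and a median standard error of 0.062, differences of the size seen in most members were not detectable at this depth and replication.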
